A study of Mus musculus with 10 samples.

Results

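Transcripts of 39 genes of liver hepatocytes were examined in RNA libraries of cultured mouse adipose stem and precursor cells (ASPCs). Most members are genes of plasma proteins and enzymes made chiefly by hepatocytes, and the set includes genes used as zonation markers. Its members were taken by gene symbol, and all 39 are among the 25223 symbols of the count table. Of these, 38 had a median of at least 10 counts over the libraries, as had 14210 genes in all. Ass1 was the member below this level.

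The ASPCs were CD45-CD31-Pdgfra+ cells, sorted from the stromovascular fraction of perigonadal white adipose tissue (gWAT) of WT mice and grown to confluence without passaging. They were treated for 6 hr with 100 nM FICZ, a ligand of the aryl hydrocarbon receptor (AHR), or with DMSO, its vehicle. There were 5 libraries in each group, numbered 1 to 5. Nothing in the labels says whether the numbers mark separate animals or cultures, so p-values measure the spread between these libraries, which may be technical. The age and sex of the mice are not given in the sources used here.

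Hepatocytes secrete most proteins of blood plasma, such as albumin, fibrinogen, apolipoproteins and transferrin. They also carry out urea synthesis, gluconeogenesis and much of amino acid breakdown. These tasks are divided along the liver lobule: cells near the portal vein express more enzymes of urea synthesis and gluconeogenesis, while cells around the central vein take up glutamate and make glutamine. Fibroblast-like cells such as ASPCs are not known for albumin or fibrinogen, but glutamine synthetase, ornithine aminotransferase and transferrin are also made in other tissues.

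The total count was between 38328611 and 50210111 in DMSO and between 40272024 and 47670865 in FICZ. A floor of 3 counts corresponded to between 0.0597 and 0.0783 CPM, counts scaled by library size, which covers counting error only. Cyp1a1, a target gene of AHR, was higher with FICZ, with a log2 fold change of 3.25 (SE 0.38, adjusted p = 0.0189, edgeR). The log2 fold change was between 3.06 and 3.49 over the alternatives. The call was lost in several edgeR fits, with an adjusted p of 0.0726 with no filter beyond 1 count, 0.0656 with Alb in the model, and up to 0.0924 without DMSO replicate 1 or 2 or FICZ replicate 1, 2 or 3. With the replicate block the adjusted p was 5.6e-05. The ASPC markers were present, with 14 of 14 marker genes counted and their summed level between 20339 and 32082 CPM. DMSO replicate 5 stood apart from the other libraries in the hepatocyte genes, and the main results are given with and without it.

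Promoter sequences are shown for 6 members, because hepatocyte genes are known to be driven by a few liver factors and because the members fell into distinct patterns, described later. Alb (albumin), Fgb (the fibrinogen beta chain), Serpina1a and Serpina1c (alpha-1-antitrypsin genes) rose and fell together. Glul (glutamine synthetase) and Oat (ornithine aminotransferase) had levels of their own. Each sequence is the 150 bases before the RefSeq gene start on GRCm38.p6, printed 5′ to 3′ on the strand of the gene. Capitals mark the letters GTTAAT, a motif known from liver promoters, or ATTAAC, the same letters on the other strand.
Alb promoter, chr5:90460720-90460869, plus strand: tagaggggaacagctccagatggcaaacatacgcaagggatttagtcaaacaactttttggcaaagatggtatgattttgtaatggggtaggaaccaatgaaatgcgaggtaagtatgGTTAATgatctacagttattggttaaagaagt
Fgb promoter, chr3:83049864-83050013, minus strand: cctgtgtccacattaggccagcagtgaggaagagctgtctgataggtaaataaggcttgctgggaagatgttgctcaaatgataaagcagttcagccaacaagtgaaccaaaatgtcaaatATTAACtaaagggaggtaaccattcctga
Serpina1a promoter, chr12:103863620-103863769, minus strand: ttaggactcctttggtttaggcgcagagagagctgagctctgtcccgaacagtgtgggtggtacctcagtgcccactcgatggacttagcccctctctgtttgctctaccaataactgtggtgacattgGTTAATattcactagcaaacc
Serpina1c promoter, chr12:103904951-103905100, minus strand: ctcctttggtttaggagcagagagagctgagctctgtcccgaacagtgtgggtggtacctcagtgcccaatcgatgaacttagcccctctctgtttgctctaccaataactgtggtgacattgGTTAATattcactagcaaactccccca
Glul promoter, chr1:153899779-153899928, plus strand: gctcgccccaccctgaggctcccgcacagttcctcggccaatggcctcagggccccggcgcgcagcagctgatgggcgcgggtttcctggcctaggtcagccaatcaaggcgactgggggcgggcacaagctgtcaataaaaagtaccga
Oat promoter, chr7:132576399-132576548, minus strand: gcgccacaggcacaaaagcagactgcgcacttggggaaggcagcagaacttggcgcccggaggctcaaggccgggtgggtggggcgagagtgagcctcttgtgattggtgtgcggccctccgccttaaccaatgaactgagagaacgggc

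RefSeq promoter windows of 300 bases were at hand for 27 of the 39 members. The letters GTTAAT, on either strand, occurred in a window of 10 of these 27 members (37.0%), against 8.24% of all 27025 genes with windows. The members holding them were Alb, Fabp1, Fga, Fgb, F2, Vtn, Serpina1a, Serpina1c, Pck1 and G6pc. Other members that rose and fell with Alb, such as Apoa2, Ahsg, Fgg, Hal and Tdo2, had windows without these letters. The 6 sequences shown thus do not stand for all members. In Alb the match lay from 32 to 27 bases before the start, and in Fgb from 29 to 24 bases before it. Serpina1a and Serpina1c shared an unbroken run of 66 bases in the sequences shown, which holds their match. Glul and Oat had a GC content of 66.0% and 63.3% in the 150 bases, against 38.7% in Alb, 42.7% in Fgb, 50% in Serpina1a and 49.3% in Serpina1c. The letters CAAAGTCCA, a site of HNF4, occurred in 0 of 27 members and 0.56% of all genes with windows. TGTTTAC, a forkhead site, occurred in 1 of 27 members (3.70%), Apoa2, and in 4.05% of all such genes. The AHR core GCGTG occurred in 6 of 27 members (22.2%) and 35.2% of all such genes. These are descriptions of letters in a window, not of binding.

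All 38 members above the level of 10 counts were highest in DMSO replicate 5, and 18 were lowest in FICZ replicate 4. Together the 39 members made up 0.578%, 0.254%, 0.277%, 0.580% and 1.41% of the counts in DMSO replicates 1 to 5. In FICZ replicates 1 to 5 the shares were 0.350%, 0.306%, 0.349%, 0.265% and 0.336%. DMSO replicates 1, 4 and 5 lay above all FICZ libraries, replicate 2 below them all and replicate 3 among them. The mean share was 0.620% ± 0.470 in DMSO and 0.321% ± 0.0359 in FICZ (SD, n = 5 each), a difference of -0.299 percentage points. Without DMSO replicate 5 the difference was -0.101 percentage points.

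**Figure D1:**
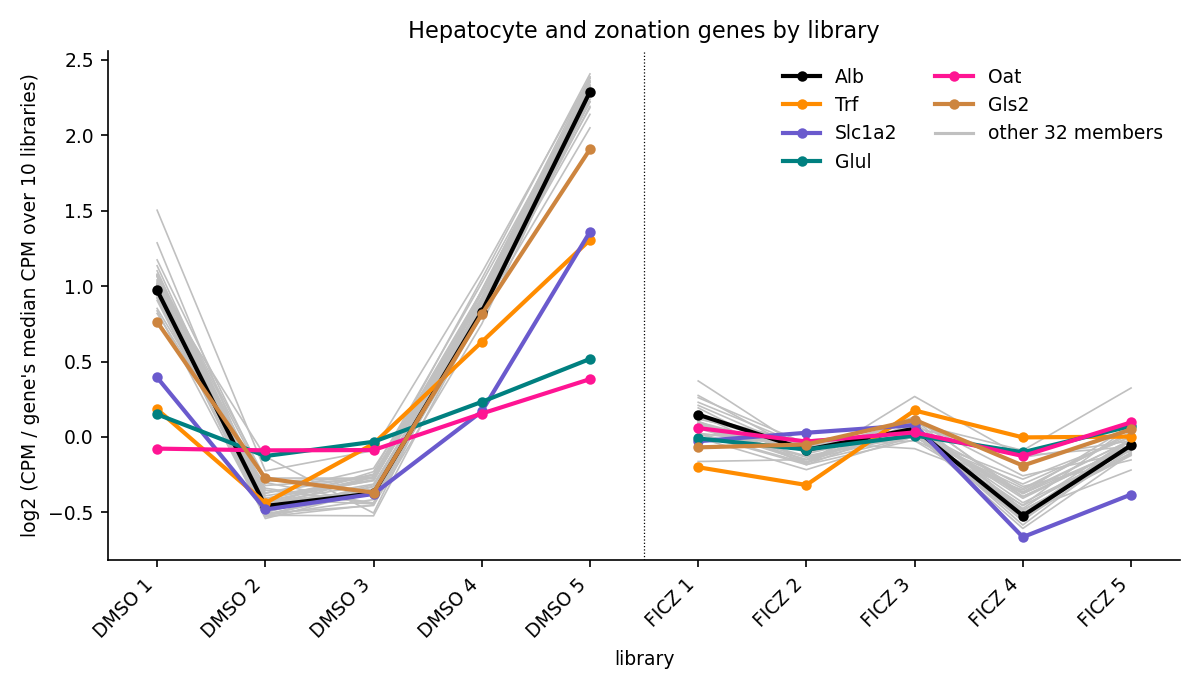
Level of the 38 members with a median of at least 10 counts in each library (x axis), as the log2 ratio of CPM to the gene's own median over the 10 libraries (y axis). Each line joins the values of 1 gene within a group, for reading only, and the replicates have no order. The grey lines and Alb move together and peak in DMSO 5, while Glul and Oat vary least.

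Alb, the main carrier protein of plasma, lies on chromosome 5 (90460897 to 90476602, plus strand, mm10) and was the member with the most counts. Its level was 1920, 713, 755, 1739 and 4780 CPM in DMSO replicates 1 to 5, and 1084, 923, 1017, 682 and 942 CPM in FICZ replicates 1 to 5. DMSO replicates 1, 4 and 5 were above every FICZ library and DMSO replicates 2 and 3 were below 4 of the 5, so that the groups overlapped. The highest library had 7.01 times the CPM of the lowest. The mean over 5 libraries was 1982 CPM in DMSO (SD 1659) and 929 CPM in FICZ (SD 153). The log2 fold change of -1.09 (SE 0.45) did not pass the threshold (adjusted p = 0.999, edgeR), nor did it in an exact two-sided permutation test (p = 0.183, where 5 against 5 can reach 0.00794). Without DMSO replicate 5 the log2 fold change was -0.46. The source of these transcripts was not tested: hepatocytes among the cells and RNA or reads carried over from other samples cannot be told apart in a count table. Nor can fewer hepatocytes and less RNA per hepatocyte in bulk libraries.

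The levels of the other members were then set against that of Alb. The slope of a gene's log2 CPM on the log2 CPM of Alb over the 10 libraries is 1 where the gene keeps a fixed ratio to Alb, and 0 where it does not move with it. Slopes from 0.7 to 1.3 were taken as following Alb, and slopes under 0.5 as a level of the gene's own. Libraries may share a culture or an animal by number, so slopes are given as descriptions with their SE and with no test.

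Beside Alb itself, 33 members followed Alb, with slopes between 0.80 and 1.02 and a median of 1.00. The SE of these slopes was between 0.01 and 0.09. Over all genes with a median of at least 10 counts, 4.14% had a slope from 0.7 to 1.3. Only Trf and Slc1a2 lay between the classes, and only Glul and Oat had slopes under 0.5, as did 94.6% of all genes. Without DMSO replicate 5 the 33 followers had slopes between 0.76 and 1.10, so the relation did not rest on that library. Without the 2 libraries farthest from the median of Alb the slopes were between 0.78 and 1.07. Alb spanned 0.67 on the log2 scale in the FICZ libraries, against 2.75 in DMSO. Over the FICZ libraries alone, 22 members had slopes from 0.7 to 1.3 and 6 had slopes under 0.5. The 22 included Alb and also Slc1a2, with a slope of 1.03 there. The 6 were Trf, Gys2, Glul, Oat, Gls2 and Cpb2.

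**Figure D2:**
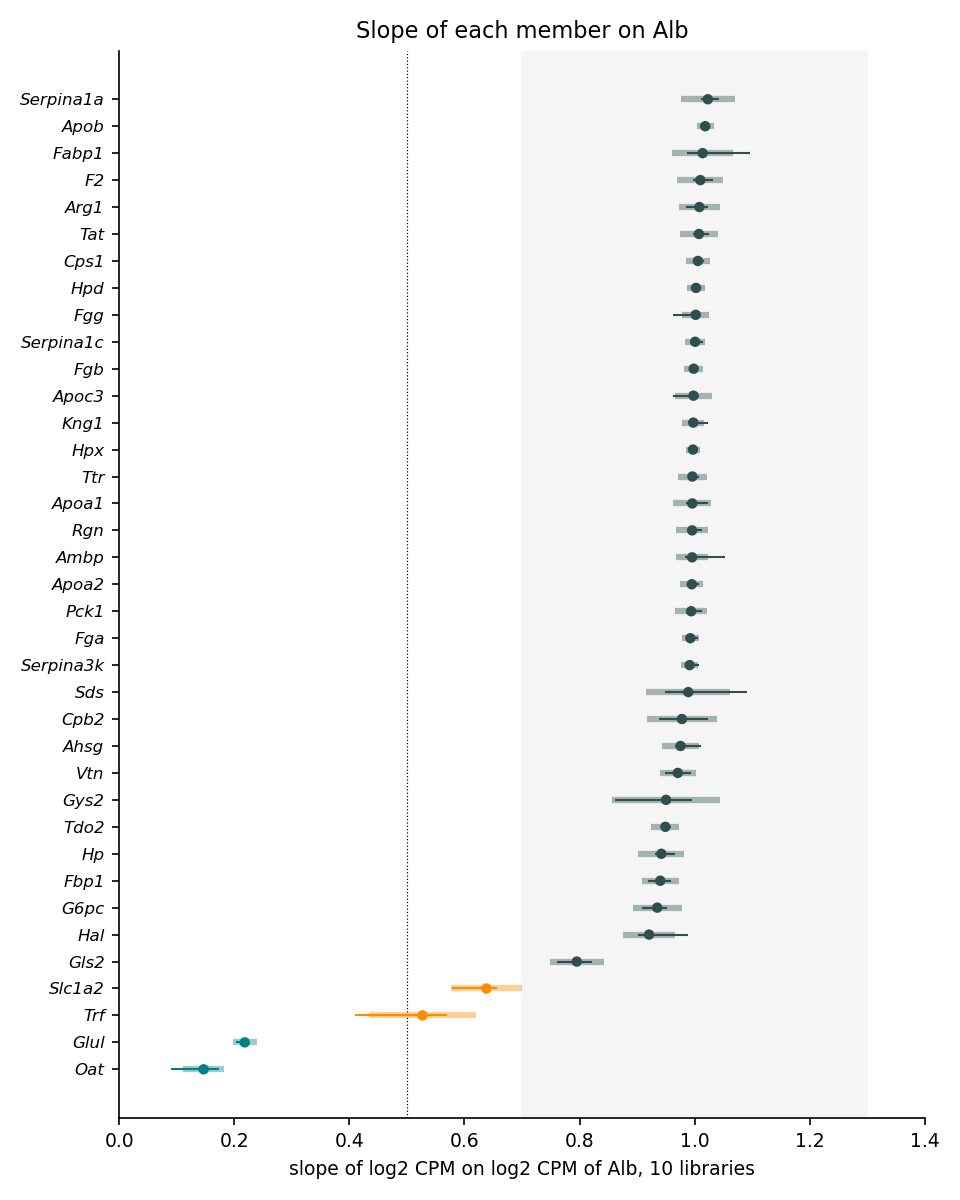
Slope of log2 CPM on log2 CPM of Alb over the 10 libraries (x axis) for the 37 members beside Alb with a median of at least 10 counts (y axis). Points are slopes, thick bars the SE, thin lines the range when 1 library is left out, the grey band the range 0.7 to 1.3 and the dotted line 0.5. The 33 followers gather near 1, and Slc1a2, Trf, Glul and Oat fall below the band.

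Among the lipoproteins and carriers, Apoa1, Apoa2, Apob and Apoc3, the proteins of plasma lipoprotein particles, followed Alb with slopes of 1.00, 1.00, 1.02 and 1.00. Apoa1 had a mean of 249 CPM in DMSO (SD 199.8, n = 5) and of 113 CPM in FICZ (SD 15.0, n = 5). For every 1000 counts of Alb there were 125 ± 6.91 counts of Apoa1 (SD over 10 libraries), from 115 in FICZ replicate 1 to 134 in FICZ replicate 4. Ttr, the carrier of thyroid hormone and retinol-binding protein, had 84.1 ± 3.62 counts per 1000 of Alb, and Hpx, which binds heme, had 71.8 ± 1.45. Hp, which binds free hemoglobin, had 61.9 ± 4.78. Ambp, Ahsg and Fabp1, the last a fatty acid binding protein that is not secreted, also followed Alb. Over this group of 12 members, the mean level ran from 39.1 CPM (Apoc3) to 1982 CPM (Alb) in DMSO.

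The clotting proteins kept close to the ratio of Alb as well. Fga, the fibrinogen alpha chain, had 140, 51.3, 54.5, 128 and 337 CPM in DMSO replicates 1 to 5, and 75.4, 67.8, 71.0, 50.6 and 65.6 CPM in FICZ replicates 1 to 5. Its high and low libraries were those of Alb, and the groups overlapped in the same way. It lies on chromosome 3 (83026076 to 83033627), beside Fgb (83040141 to 83049863) and Fgg (83007724 to 83015049). The fibrinogen chains Fga, Fgb and Fgg had 71.8 ± 1.82, 68.0 ± 1.86 and 52.6 ± 2.14 counts per 1000 of Alb. F2 (prothrombin), Kng1 (kininogen), Cpb2 (an inhibitor of clot breakdown) and Vtn (vitronectin) had slopes between 0.97 and 1.01. Of all 50-base stretches of Kng1 transcripts, 17.2% also occur in Kng2, so that reads could be split between both genes.

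The protease inhibitor Serpina3k had 214, 77.8, 88.6, 201 and 529 CPM in DMSO replicates 1 to 5, and 120, 106, 117, 75.6 and 110 CPM in FICZ replicates 1 to 5. As for Alb, DMSO replicate 5 was far above the rest and the groups overlapped. Serpina1a and Serpina1c had slopes of 1.02 (SE 0.05) and 1.00 (SE 0.02). Their levels apart from each other are uncertain, since 69.4% of the 50-base words of Serpina1c also occur in Serpina1a. How reads with several alignments were counted is not given in the sources used here.

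Of the 10 periportal members, 9 followed Alb and Ass1 was hardly counted. Cps1, the first enzyme of the urea cycle, lies on chromosome 1 (67123026 to 67231259). It had 105, 39.2, 44.0, 99.0 and 261 CPM in DMSO replicates 1 to 5, and 57.4, 50.1, 52.6, 35.8 and 51.7 CPM in FICZ replicates 1 to 5. There were 54.6 ± 1.95 counts per 1000 of Alb (SD, n = 10 libraries), with a coefficient of variation of 3.56%, against 2.53% to 4.06% for the fibrinogen chains. Arg1, the last enzyme of the cycle, had a slope of 1.01 (SE 0.04). The gluconeogenic genes Pck1, G6pc and Fbp1 had slopes of 0.99, 0.94 and 0.94. Tat, Sds and Hal, which break down tyrosine, serine and histidine, had slopes of 1.01, 0.99 and 0.92. Of the 50-base words of Sds, 18.5% also occur in Plbd2, a gene with 43216 counts in all.

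Gls2, the liver-type glutaminase, had the lowest slope among the followers, 0.80 (SE 0.05). It had 8.78 counts per 1000 of Alb in FICZ replicate 4, where Alb was lowest, and 5.36 in DMSO replicate 5, where Alb was highest. A straight line of CPM on Alb CPM, added after the data were seen, met a level of 2.17 CPM (SE 0.32) at no Alb, which is 31.8% of the median level of Gls2. The line met 1.68 CPM without DMSO replicate 5. Such a level lies outside the measured range of Alb and is an extrapolation. The median of this share over the 33 followers was 1.52%.

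Ass1, argininosuccinate synthase of the urea cycle, had 6 counts in DMSO replicate 5, 1 count each in FICZ replicates 2 and 3, and 0 in the other 7 libraries. It is an abundant liver enzyme, yet its highest level was 0.123 CPM where that of Cps1 was 261 CPM. Of its 50-base words, 38.6% also occur in the processed pseudogene Gm5424, which had 0 counts in every library. Whether reads with several alignments account for the low count was not tested.

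The pericentral members behaved less alike than the periportal ones. Rgn (regucalcin) followed Alb with a slope of 1.00 (SE 0.03), and had 18.3 ± 0.87 counts per 1000 of Alb. Slc1a2, a glutamate transporter, had 7.0, 3.82, 4.10, 5.99 and 13.7 CPM in DMSO replicates 1 to 5, and 5.22, 5.43, 5.62, 3.36 and 4.09 CPM in FICZ replicates 1 to 5. It was highest in DMSO replicates 5 and 1 and lowest in FICZ replicate 4, as Alb was, but over a narrower range. Its slope was 0.64 (SE 0.06), and the straight line met 2.40 CPM (SE 0.28) at no Alb, or 45.1% of its median level. The line also met 2.40 CPM without DMSO replicate 5.

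Glul, which makes glutamine from glutamate and ammonia, had 169, 139, 149, 179 and 218 CPM in DMSO replicates 1 to 5, and 151, 144, 153, 142 and 160 CPM in FICZ replicates 1 to 5. The gene lies on chromosome 1 (153899944 to 153909723). DMSO replicate 5 was again highest, but only 1.56 times the lowest library. The slope was 0.22 (SE 0.02), between 0.20 and 0.23 with any 1 library left out. The straight line met 134 CPM (SE 3.55) at no Alb, 87.9% of the median level, and rose by 18.3 counts (SE 1.89) for each 1000 counts of Alb. The line met 125 CPM without DMSO replicate 5. Of the 50-base words of Glul, 12.6% also occur in other transcripts, chiefly of the pseudogene Glns-ps1.

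Oat, which passes the nitrogen of ornithine on to glutamate, had 268.2, 266, 266, 315 and 369 CPM in DMSO replicates 1 to 5, and 295, 277, 289, 259 and 303 CPM in FICZ replicates 1 to 5. The gene lies on chromosome 7 (132557478 to 132576398). DMSO replicates 5 and 4, which had high Alb, were highest here, while DMSO replicate 1, with the second most Alb, was below 4 of the 5 FICZ libraries. The slope was 0.15 (SE 0.04), or 0.09 without DMSO replicate 5. The straight line met 257 CPM (SE 8.93) at no Alb, 91.0% of the median level, and rose by 22.9 counts (SE 4.77) for each 1000 counts of Alb. The line met 263 CPM without DMSO replicate 5.

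Trf, the iron carrier transferrin, on chromosome 9 (103204001 to 103230444), was the second most counted member. Its level was 663, 431, 566, 903 and 1444 CPM in DMSO replicates 1 to 5, and 508, 468, 659, 583 and 585 CPM in FICZ replicates 1 to 5. DMSO replicate 2 was lowest and DMSO replicates 4 and 5 were highest. The slope was 0.53 (SE 0.09), and 0.41 without DMSO replicate 5, which would place Trf among the genes with a level of their own. The straight line met 348 CPM (SE 49.5) at no Alb, 59.7% of the median level, or 355 CPM without DMSO replicate 5. Of the 50-base words of Trf, 58.5% also occur in the overlapping gene model Gm20425, which is not listed in the table.

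**Figure D3:**
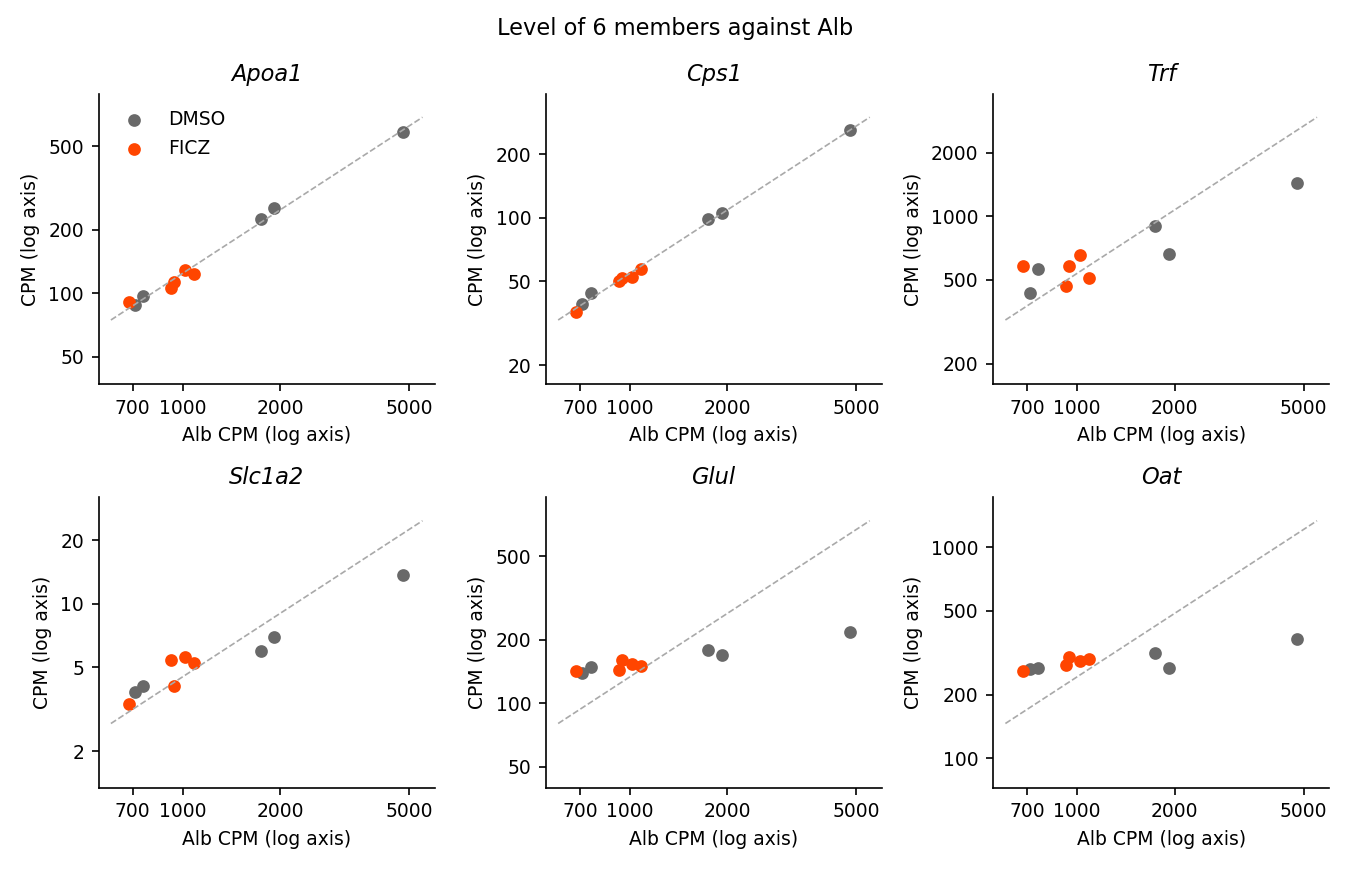
CPM of 6 members (y axis, log scale) against CPM of Alb (x axis, log scale) in the 5 DMSO and 5 FICZ libraries, each point 1 library. The dashed line marks a fixed ratio to Alb through the means of the log values. Apoa1 and Cps1 lie along the line, while Trf, Slc1a2, Glul and Oat cross it with flatter slopes.

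Because Alb ranged so widely, the make-up of the members' counts differed between libraries. The members Trf, Oat, Glul and Slc1a2 together held 15.2% of the members' counts in DMSO replicate 5 and 36.8% in FICZ replicate 4. Within the followers the make-up was steady, with Alb at 40.3% to 42.5% of their counts. The ratio of a follower to Alb had a coefficient of variation over the libraries between 2.02% and 16.3%, with a median of 5.43%, where counting error alone gives a median of 2.60%. Of the 33 followers, 15 had their lowest ratio to Alb in FICZ replicate 1, and 14 their highest in FICZ replicate 4.

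Levels between genes were compared per kb of exon length. The median level over the libraries was 418 CPM per kb for Alb, 185 for Apoa2, 176 for Trf and 120 for Oat. Fabp1 and Apoa1 had 97.7 and 96.2 CPM per kb, and Serpina3k 55.1. Glul, at 45.8 CPM per kb, was far above Cps1, at 9.39, and Slc1a2, at 0.41. Apoc3 had 18.4 CPM per kb and Apob 5.95, so that Trf and Oat lay above 3 of the 4 apolipoproteins per length.

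The ratio of periportal to pericentral transcripts is a usual measure of zonation. The summed counts of the 10 periportal members were between 0.256 times (FICZ replicate 4) and 1.03 times (DMSO replicate 5) those of the 4 pericentral members. On the log2 scale the ratio was -0.74, -1.95, -1.87, -0.96 and 0.04 in DMSO replicates 1 to 5, and -1.57, -1.69, -1.65, -1.96 and -1.77 in FICZ replicates 1 to 5. The mean was -1.10 ± 0.83 in DMSO and -1.73 ± 0.15 in FICZ (SD, n = 5 each), a difference of -0.63, and of -0.35 without DMSO replicate 5. The ratio rose with Alb, with a slope of 0.75 (SE 0.03), and most of its denominator was Glul and Oat.

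With the followers alone, that is 9 periportal members over Rgn, the ratio was between 7.69 and 8.90 in all libraries. Its slope on Alb was -0.01 (SE 0.03). Since followers were chosen by their slope on Alb, a near-level ratio follows from that choice. It is no separate result on zonation. Leaving out Glul and Oat only, the difference between the groups was -0.03 on the log2 scale, against -0.63 with them. Glul and Oat were set apart by the same slopes. Single pairs of genes gave the same split. The ratio of Gls2 to Glul was between 0.0356 and 0.118, that of Cps1 to Oat between 0.138 and 0.708 and that of Hal to Slc1a2 between 0.793 and 1.46. By contrast, the ratio of Cyp2f2 to Cyp2e1, a periportal and a pericentral enzyme outside the members, was between 0.149 and 0.172.

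**Figure D4:**
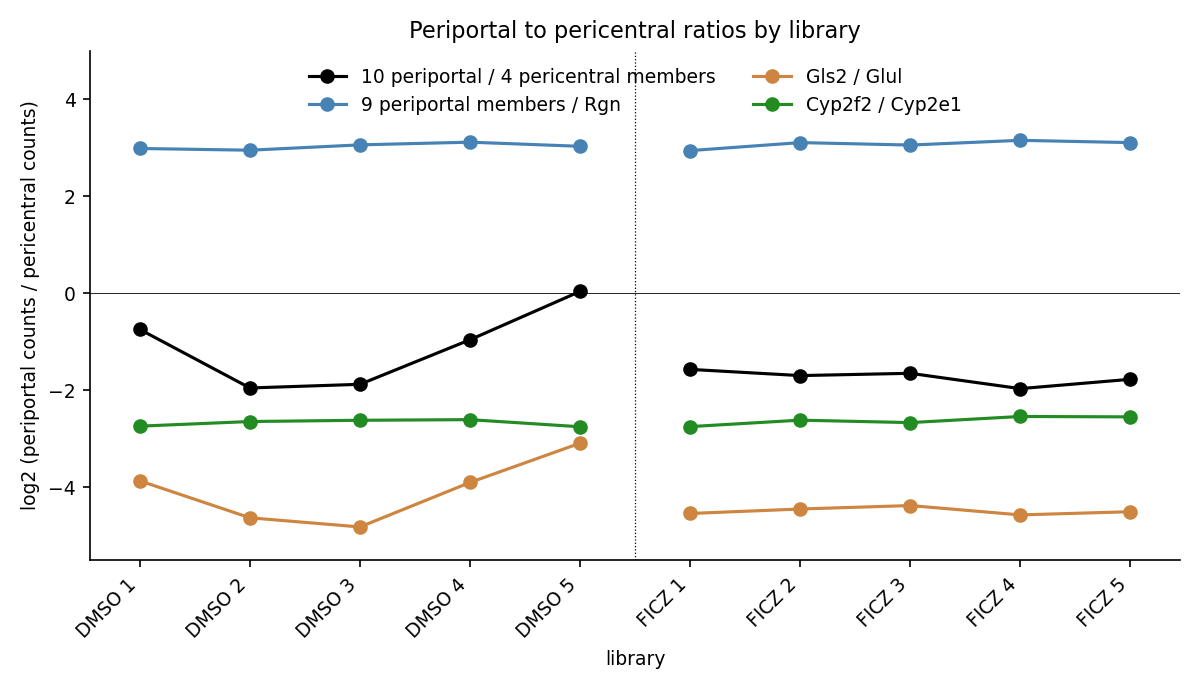
Log2 ratio of periportal to pericentral counts (y axis) in each library (x axis) for 4 choices of genes, with lines only joining the values of 1 ratio within a group. The ratios that hold Glul or Oat move with Alb and peak in DMSO 5. Those of genes that follow Alb stay level, which their similar slopes on Alb imply. For 9 periportal members over Rgn the log2 ratio is between 2.94 and 3.15.

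The enzymes with no zone assigned also followed Alb. Hpd, of tyrosine breakdown, had 65.7, 22.7, 25.7, 57.9 and 159 CPM in DMSO replicates 1 to 5, and 35.9, 31.7, 33.5, 23.3 and 30.1 CPM in FICZ replicates 1 to 5. Its highest libraries were those of Alb, and its slope was 1.00 (SE 0.02). Tdo2, of tryptophan breakdown, had a slope of 0.95 (SE 0.02). Gys2, the liver glycogen synthase, had a slope of 0.95 (SE 0.09), and the least steady ratio to Alb among the followers.

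FICZ was compared with DMSO for each member. None of the 38 tested members passed the threshold (adjusted p = 0.999 for each, edgeR), where 0.0211% of 14251 genes did. All 38 had negative log2 fold changes, with a median of -1.10 against 0.01 over all genes tested. At an unadjusted p of 0.05 or less 34 of the 38 were lower with FICZ, against 3.49% of all genes, the same 34 that followed Alb. Since these members kept a near-fixed ratio to Alb, they repeat 1 pattern over the libraries and are not 34 separate results. Their log2 fold changes were between -1.24 (Serpina1a) and -0.84 (Gls2). Those of the others were -0.54 (SE 0.32) for Slc1a2, -0.52 (SE 0.27) for Trf, -0.19 (SE 0.11) for Glul and -0.06 (SE 0.10) for Oat.

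The groups overlapped in all 38 members. The exact two-sided permutation p of the 34 members was between 0.135 and 0.238. With FICZ, 36 members were lower in 3 of the 5 same-numbered pairs, Gys2 in 4 and Oat in 2. The direction differed between the pairs. In the pairs numbered 4 and 5 all 38 members were lower with FICZ and in pair 1 37 were. In pair 2 only Gys2 was, and in pair 3 none was. Alb in DMSO replicates 1, 4 and 5 was above every FICZ library, not only the same-numbered one. With the replicate number as a blocking term, the median log2 fold change was -0.75, and 0 of 38 members were at an unadjusted p of 0.05 or less, against 2.17% of all genes lower with FICZ. DESeq2 passed 0 of 39 members. At an unadjusted p of 0.05 or less 34 of these were lower with FICZ, as were 698 genes in all (18939 tested). With the block in DESeq2 5 of 39 members were lower at that p, as were 431 genes in all (18171 tested). The count of 34 in edgeR was 0 without DMSO replicate 5, where the median was -0.48. There 103 of 14300 genes were lower at that p. Without FICZ replicates 4, 2 and 5 the count was 4, 17 and 22. All genes lower then numbered 215 of 14356, 253 of 14361 and 378 of 14348. Without DMSO replicates 2 and 3 the count rose to 37 and 35, with 754 of 14365 and 748 of 14364 genes lower. With any other library left out it lay between 23 and 32, with 340 to 387 genes lower.

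With the log2 CPM of Alb in the model, the log2 fold changes of the 37 other members were between -0.20 (Sds) and 0.10 (Slc1a2), with a median of -0.03. They were negative for 27 members and positive for 10. The lowest unadjusted p among them was 0.108 (edgeR), for Serpina1a. Since 33 of these members kept a near-fixed ratio to Alb, values near 0 follow from that ratio. They are no separate result on FICZ.

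**Figure D5:**
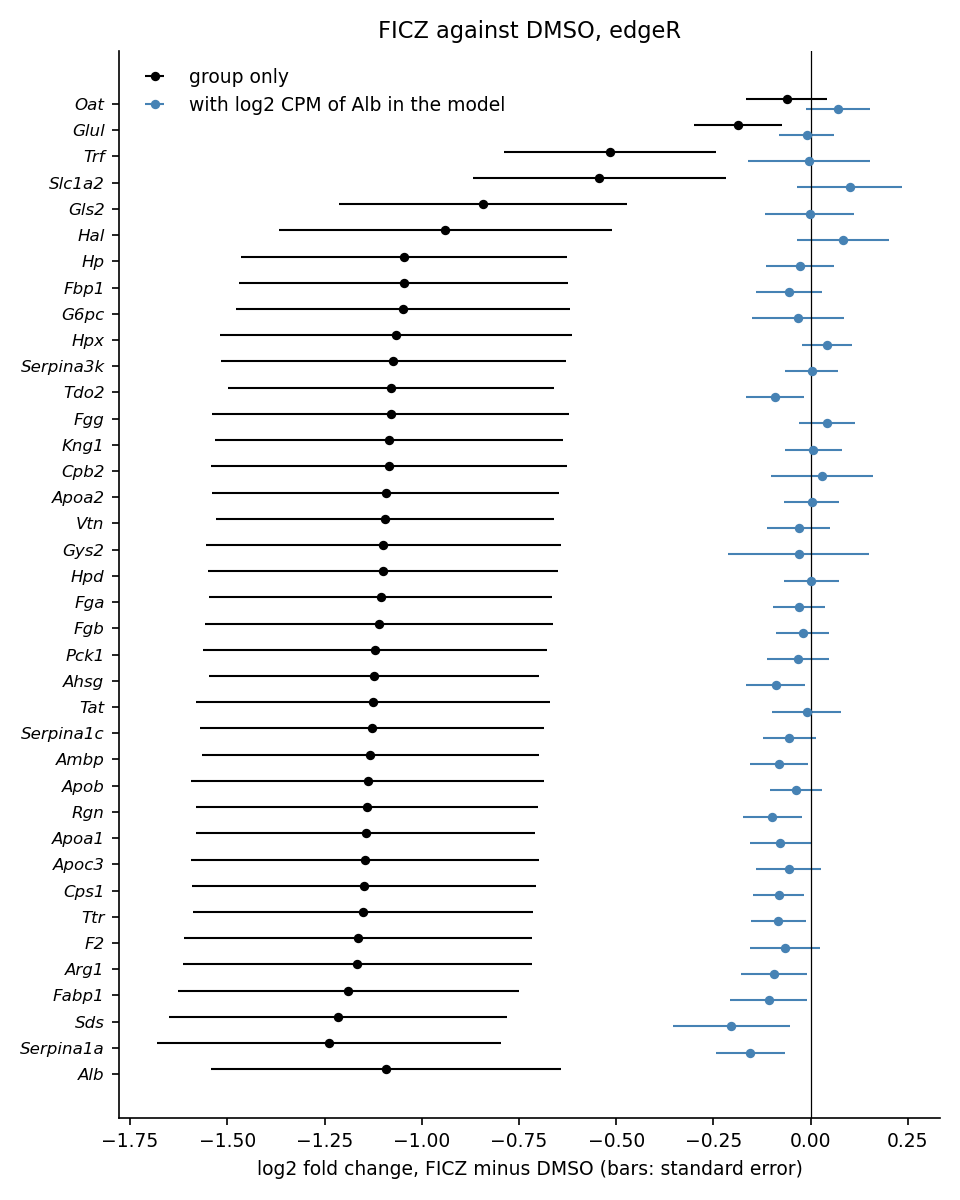
Log2 fold change of FICZ against DMSO (x axis, bars show the SE) for the 38 tested members (y axis) from edgeR, with the group alone (black) and with the log2 CPM of Alb in the model (blue, not drawn for Alb). The black points of the followers lie between -1.24 and -0.84. All blue points, those of the followers and of the other members, lie between -0.20 and 0.10. For the followers, blue points near 0 follow from their near-fixed ratio to Alb.

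Lists of other genes were set against Alb in the same way. Of 43 other hepatocyte genes 40 followed Alb, among them Gc, Mup20 and Mup3, which had the highest levels, and the liver transcription factor genes Hnf4a and Foxa3. Fetub had a slope of 0.67, Agt of 0.40 and Nr1h4 of 0.28. Of 8 other periportal genes 6 followed Alb, including Pigr, Apoa4 and Cyp2f2, while Gldc had a slope of 0.63 and Aldh1b1 of 0.47. Of 14 other pericentral genes 10 did, including Cyp2e1, Cyp3a11 and Cyp2c29. Rhbg had a slope of 0.64 (SE 0.25) and Lgr5 of 0.57 (SE 0.24), with at most 52 and 47 counts. The Wnt pathway genes Axin2 and Tbx3 had slopes of -0.12 and -0.03. Both zonal lists thus held followers and other genes.

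Of the 14 ASPC markers 0 followed Alb and all 14 had slopes under 0.5, among them Fn1, Col1a2 and Col3a1. Markers of other liver cells were mixed. The summed level of the 12 Kupffer cell markers was 12.2 to 53.7 CPM in DMSO, highest in replicate 5, and 10.2 to 18.7 CPM in FICZ, and 8 of the 10 above a median of 10 counts followed Alb. Of the 3 highest on this list, Cd5l and Clec4f had slopes of 0.96 and 1.02, and Cd68 of 0.25. The cells had been sorted as CD45- and CD31-, and Ptprc, the gene of CD45, had a slope of 1.02 and between 7 and 83 counts, while Pecam1, the gene of CD31, had a slope of 0.27 and between 22 and 79 counts. Of the liver sinusoidal endothelial markers 3 of 9 followed Alb (Stab2, Clec4g and Fcgr2b), and Cdh5, Oit3 and Stab1, the highest, did not. Of the stellate cell markers 3 of 7 followed it (Lrat, Ngfr and Colec11), and Ecm1, Hgf and Reln did not. The stellate list summed to between 159 and 233 CPM over all libraries, mostly from Ecm1. None of the 4 cholangiocyte markers above 10 counts followed Alb, and their list summed to between 2112 and 2940 CPM, mostly from Spp1, with Spp1, Sox9 and Krt19 at slopes of 0.07, -0.04 and -0.37.

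Markers of tissues outside the liver were then examined. The globin genes Hba-a1, Hba-a2, Hbb-bs and Hbb-bt were listed at 0 in every library. These genes have near-identical copies, and how reads with several alignments were counted is not given, so the 0 sets no limit on their level. Alas2, of heme synthesis, had a slope of 1.02. Of the mature adipocyte markers Lep was at 0 in every library, Plin4, Plin1 and Adipoq had slopes of 0.00, 0.07 and 0.39, and Cidec and Cfd followed Alb. The mesothelial markers, led by Wt1, Upk3b and Lrrn4, did not follow it (0 of 6), nor did those of exocrine pancreas (0 of 1, Cela1), kidney tubule (0 of 3, Lrp2, Aqp2 and Slc12a1) and skeletal muscle (0 of 3, Mylpf, Tnnt3 and Acta1). Of the intestinal markers Fabp2, which liver also holds at low level, had a slope of 0.97. The part of any other tissue or cell type in the members' counts was not tested.

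Among the 10 genes outside the members whose log2 CPM was most like that of Alb over the 10 libraries were Pzp, Cyp3a11, Gc, Cyp2e1, Nat8f2, Apoh, Ces1c, Mup3 and Uox. The Pearson correlations of the 10 with Alb were between 0.999 and 1.00, over libraries that share depth and, by number, may share cultures. Their slopes were between 0.96 and 1.03.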

How the data were processed

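Bulk RNA sequencing of 10 libraries was analysed. The authors aligned reads with STAR 2.7.7 to mm10, and deposited unnormalized counts for each gene symbol. The counting program, annotation and treatment of strand are not given in the sources used here. Of 25229 entries, 8 had repeated symbols (at most 5 counts). Libraries of a group differed beyond sampling noise in all 20 pairs (chi-square per degree of freedom 15.7 to 266).

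FICZ and DMSO were compared with edgeR 4.0.16 (R 4.3.3; quasi-likelihood test, TMM, filter by expression, Benjamini-Hochberg over 14251 genes, threshold 0.05). CPM were scaled by TMM. Slopes are least squares of log2 CPM (prior count 2). Scripts were tested on simulated data. Alternatives were DESeq2 1.42.0, other scalings and filters, the replicate block, Alb as a covariate and leaving out each library. Same-numbered libraries deviated together (correlations 0.27, 0.28, 0.15, 0.32 and 0.24). For DMSO replicates 3 and 4, though, the FICZ library with the highest correlation had another number. The main edgeR fit and the permutation test did not use the numbers as pairs, and the replicate block was an alternative only.

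The gene symbols were matched to GENCODE annotation of GRCm38 for exon length and 50-base words, and to RefSeq promoters. The members and lists were chosen with earlier results of these data known. Per-library values are given for Alb, the highest member of each role group and members with a level of their own. Trf, Slc1a2, Rgn and Gls2 are described in more detail after their values were seen. Of other lists, the 3 highest genes are named, and others named were chosen after their values were seen. Some genes that met these rules are not reported here.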

Additional observations from a re-analysis of the deposited data

Results flagged for a closer look

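Each group of 5 libraries was searched for 1 library set apart from the other 4. This was found in 6 of 96 groups, and about 1 in 20 groups is found by chance. The distance to the nearest library was divided by the range of the group. In DMSO replicate 5 it was 0.736 for Fgg, 0.722 for Arg1, 0.715 for Tat and 0.712 for Gys2, and 0.719 for the summed share of the members, each time as the highest library. For Alb in the same library it was 0.703, just under the limit for 5 samples. Since these genes follow Alb, the 5 values repeat 1 pattern. In FICZ replicate 4 it was 0.748 for Fgg, as the lowest library at 35.3 CPM.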

How the results depend on the processing

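Under every alternative that was run, 0 of the members passed the threshold. Leaving out 1 library at a time, the log2 fold change of Alb was between -1.30 and -0.46, the count of members called stayed at 0, the count with slopes from 0.7 to 1.3 stayed at 34 and the count with slopes under 0.5 was 2 or 3. The difference in the share of counts was then between -0.390 and -0.101 percentage points, and that in the log2 ratio of periportal to pericentral counts between -0.84 and -0.35. With a replicate block, Alb had a log2 fold change of -0.73 (adjusted p = 0.929, edgeR), and the count of followers was 35, with Slc1a2 at a slope of 0.71. The replicate block changed no call. Over the FICZ libraries alone, the counts were 22 with slopes from 0.7 to 1.3 and 6 under 0.5. The cause was not tested. The log2 fold change of Oat, -0.06 with all libraries, was between -0.11 and 0.028 when 1 library was left out, and turned positive without DMSO replicate 5. The number of genes past the threshold over all genes was 3 in edgeR, 8 with the block, 16 in DESeq2 and 25 higher and 1 lower in DESeq2 with the block. For Ass1, with at most 6 counts, no change could be detected at this depth.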
